A study of Rattus norvegicus with 8 samples.

Results

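The 10 genes described here encode enzymes of triglyceride assembly and export (Gpam, Agpat2, Lpin1, Dgat1, Dgat2, Pnpla3 and Mttp) and of polyunsaturated fatty acid synthesis (Fads1, Fads2 and Elovl5) in rat liver. They were chosen by name, for their known functions, with earlier results of these data known. Every array probe whose gene name in the deposited scanner files equals one of these names was taken. This gave 17 probes for 10 genes, and all 10 passed the filter on dim probes, among 21676 genes tested in all. No member passed the test between treated and control livers after adjustment. Dgat2 had the smallest p-value of the 10, and its signal was higher in all 4 treated livers than in every control sample. Such a separation, higher in treated livers, was seen for 11.3% of all genes tested.

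Male Wistar rats received by gavage either a butyrate-containing structured lipid (STL) at 1.65 g per kg body weight daily or, as controls, an isocaloric dose of maltodextrin at 3.0 g per kg, with 4 rats in each group. Both groups entered the resistant hepatocyte model of liver carcinogenesis at week 2 of treatment and were euthanized at week 8, so the controls are not normal livers. The model's agents and the rats' ages are not given in the sources used here, beyond that the controls were age-matched. Total RNA from liver tissue, 0.6 ug per sample, was labelled with Cy3 and read on 8 single-colour Agilent arrays, 4 per group, on 1 slide scanned on 1 day.

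Triglyceride is built on a glycerol phosphate backbone by stepwise transfer of fatty acids. Gpam adds the first acyl chain, Agpat2 the next, Lpin1 removes the phosphate to leave diacylglycerol, and Dgat1 and Dgat2, which are unrelated in sequence, add the last chain. The liver stores the product in lipid droplets or loads it onto apolipoprotein B with the help of Mttp and secretes it as very low density lipoprotein (VLDL). Fads2, Elovl5 and Fads1 desaturate and lengthen the essential fatty acids of the diet into long polyunsaturated fatty acids such as arachidonic acid, and the liver is a main site of this pathway.

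Signals are given on the log2 scale relative to each array's own 75th percentile, so 0 is that percentile and a difference of 1 is a doubling. Levels of different probes are not on 1 scale and are not set against each other. Control 1 and control 2 lay apart by 1.04 times the noise between repeated spots within an array, against 2.14 to 6.82 times for the other 27 pairs of arrays, and were counted as 1 sample. Comparisons are therefore of 3 control with 4 STL samples, and control values below are in the order of the averaged pair (control 1 and 2), control 3 and control 4. The labels count 4 rats per group but do not say which rat gave which array, so p-values measure the spread between these samples. The number of arrays limits the precision, and the smallest two-sided exact permutation p that 3 against 4 samples allow is 0.0571.

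The 75th percentile of the arrays lay between 304 (STL 7) and 605 (control 4) in processed signal, and 54.2% to 62.9% of probes were well above background. All 10 hepatocyte markers of the list used were well above background on all 8 arrays. Of 8 adipocyte markers, 4 were well above background on all 8 arrays, and Adipoq, Lep and Plin1 on 0 arrays. The log2 differences of the 4 were 0.25 for Cidec, -1.61 for Fabp4, -0.16 for Cidea and 0.10 for Cfd. Thus 2 were higher and 2 lower, with a median of -0.03. The mean centred score of the 4 was 0.12 to 0.26 in control and -0.35 to 0.07 in STL samples. Of 10 lymphocyte markers, 4 were above background on all 8 arrays and Cd3e, Cd2 and Ms4a1 on 0. Of 7 cholangiocyte and progenitor markers tested, 6 had lower point estimates in STL livers (median -1.07), with scores of 0.10 to 1.46 in control and -1.15 to 0.23 in STL samples. Of 9 stellate cell and matrix markers, 8 were lower (median -0.53), with scores of -0.01 to 0.76 and -0.50 to 0.00. Of 10 markers of preneoplastic liver lesions 10 had lower point estimates in STL livers, with a median log2 difference of -1.78, and of 10 cell cycle genes 10 did, with a median of -1.28; 0 of these 20 passed the adjusted threshold, while 7 and 8 of them were lower at an unadjusted p under 0.05, beside 7.41% of all genes tested. The groups overlapped on the mean centred score of the lesion markers. It ranged from 0.43 to 2.03 in the control samples and from -1.65 to 0.63 in the STL samples. The groups overlapped on the cell cycle score too, at -0.32, 1.16 and 1.15 in control and -0.83 to -0.23 in STL. In whole tissue, fewer cells of a type and less RNA per cell cannot be told apart.

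Several members were read by more than 1 probe, and the probe sequences show how far such readings are separate. Gpam has 3 probes, and 2 of them share a run of 27 bases. Both lie on the minus strand of chromosome 1 in the rn4 assembly, at chr1:261370339-261375722 and chr1:261370372-261375755, and each 60-base probe spans 5384 bases of the genome. They are printed with the shared run in capitals.
Gpam probe A: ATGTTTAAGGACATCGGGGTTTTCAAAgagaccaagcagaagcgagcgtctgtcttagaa
Gpam probe B: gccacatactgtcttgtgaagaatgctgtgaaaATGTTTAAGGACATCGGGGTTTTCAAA
Since the end of probe B is the start of probe A, the 2 differences they gave, 0.03 and -0.07 on the log2 scale, are readings of neighbouring stretches of 1 transcript. The brightest Gpam probe shares at most 5 bases in a row with them. The Elovl5 probes overlap in the same way by 15 bases, at chr8:82947223-82948248 and chr8:82947178-82947237 on the plus strand of rn4, and the first spans 1026 bases.
Elovl5 probe A: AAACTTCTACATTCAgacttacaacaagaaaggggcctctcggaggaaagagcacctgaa
Elovl5 probe B: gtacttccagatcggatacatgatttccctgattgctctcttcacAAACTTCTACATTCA
In the other 3 members with several probes, Lpin1, Dgat1 and Pnpla3, no pair shared more than 7 bases in a row. The other 5 members had 1 probe each. The exon or UTR position of the probes was not read here.

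**Figure D1:**
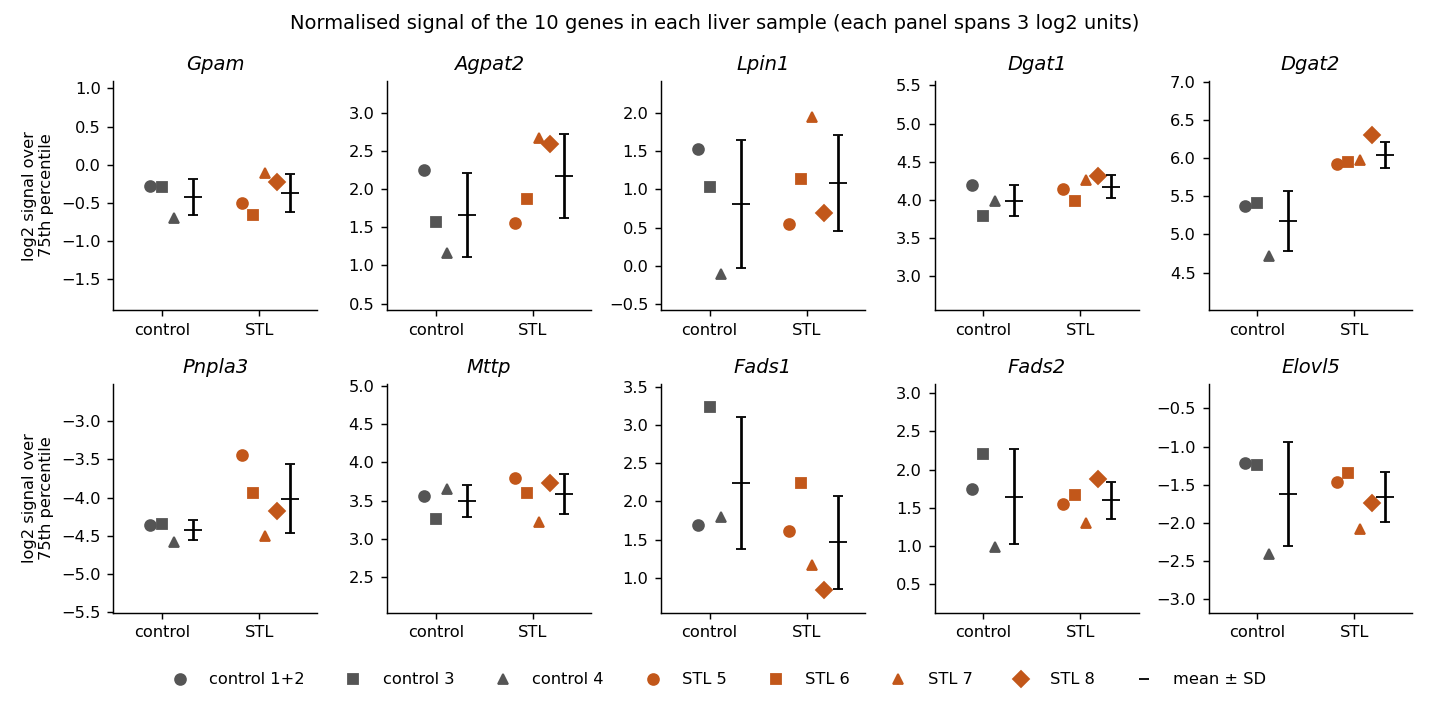
Log2 normalised signal of the 10 genes (y axis, 0 is the 75th percentile of an array) in the 3 control and 4 STL samples, 1 panel per gene, with bars for mean ± SD beside the points. In the Dgat2 panel the 4 STL points, 5.92 to 6.30, lie above the 3 control points, 4.72 to 5.42, and in the other 9 panels the groups overlap.

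Of the enzymes of the last acylation step, Dgat2, the diacylglycerol acyltransferase known for using newly made fatty acids, had the clearest separation. Its signal was 5.38, 5.42 and 4.72 in the control samples and 5.92, 5.95, 5.98 and 6.30 in STL 5 to STL 8. All 4 STL samples were above all controls, and control 4 was the lowest sample. The means were 5.17 ± 0.39 (SD, n = 3) in control and 6.04 ± 0.17 (SD, n = 4) in STL, a log2 difference of 0.87 with a 95% interval of 0.44 to 1.30, or 1.82-fold. In limma this had an unadjusted p of 0.00147, rank 186 of 21676 genes, and a Benjamini-Hochberg adjusted p of 0.164, which misses the threshold of 0.05. The single Dgat2 probe lies at chr1:156447836-156447895 on the minus strand of rn4.

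The slide carried the arrays in 4 columns, each with 1 control and 1 STL array. Within these columns Dgat2 was higher in the STL array by 0.55, 0.57, 0.56 and 1.58, with control 4 in the last. Since every STL value was above every control value, this direction was fixed for any pairing. The columns therefore add only the sizes of the differences. The first 2 columns hold control 1 and control 2, so these differences rest on 3 distinct control samples. Without control 4 the log2 difference was 0.64, and over the 7 fits that each left out 1 sample it ran from 0.64 to 0.99. With limma's array weights the difference was 0.77 and the adjusted p 0.0364, past the threshold, in a fit that called 1591 genes in place of 1.

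Dgat1, the other diacylglycerol acyltransferase, resides in the endoplasmic reticulum and re-esterifies fatty acids taken up from outside. It measured 4.19, 3.79 and 3.99 in the control samples and 4.15, 3.98, 4.26 and 4.31 in the STL samples. The groups overlapped, and control 3 was the lowest. The log2 difference was 0.18 (95% interval -0.12 to 0.48, limma adjusted p 0.457), and the other Dgat1 probe gave 0.08. The contrast of both enzymes was looked at after the values had been seen, when Dgat2 alone had already separated the groups. The adjusted p below does not cover that choice, so it is not separate support. For the contrast each gene was first centred on its own mean over the 7 samples. Centred Dgat2 minus centred Dgat1 was -0.38, 0.05 and -0.84 in control and 0.21, 0.40, 0.14 and 0.42 in STL. The groups did not overlap, and the contrast was 0.68 higher in STL, with an exact two-sided permutation p of 0.0571, the smallest possible, and 0.0857 adjusted over 3 such contrasts.

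At the first acylation step Gpam, the mitochondrial glycerol phosphate acyltransferase, showed no separation. It measured -0.28, -0.30 and -0.70 in control and -0.50, -0.65, -0.11 and -0.22 in STL. The ranges overlapped in part, with STL 7 and STL 8 above every control sample. The log2 difference was 0.05 (95% interval -0.35 to 0.45, limma adjusted p 0.893). An increase of more than 0.45 or a decrease of more than 0.35 lies outside this interval. All 3 Gpam probes were well above background on all 8 arrays.

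Agpat2, whose loss causes a congenital lipodystrophy, adds the next acyl chain to give phosphatidic acid. It measured 2.25, 1.57 and 1.17 in control and 1.55, 1.86, 2.66 and 2.59 in STL. STL 7 and STL 8 were the highest samples and control 4 the lowest, but STL 5 lay below control 3 and the averaged pair. The log2 difference was 0.51 (95% interval -0.24 to 1.26, limma adjusted p 0.411). Without control 4 it was 0.26, and without the averaged control pair 0.80.

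Lpin1, the phosphatidic acid phosphatase that also acts as a transcriptional coactivator, had the widest control spread of the triglyceride genes. Its brightest probe read 1.52, 1.03 and -0.11 in control and 0.55, 1.14, 1.95 and 0.69 in STL. Control 4 was low and STL 7 high, and the log2 difference was 0.27 (95% interval -0.71 to 1.24, limma adjusted p 0.750). The probes disagreed in sign. The next probe read 0.32, 0.64 and -1.22 in control and 0.08, 0.02, 0.08 and -0.62 in STL, a difference of -0.03, and the dimmest read -2.27, -1.95 and -3.56 against -3.11, -2.73, -2.64 and -3.25, a difference of -0.34. Control 4 was the lowest sample on all 3 probes, whereas STL 7 exceeded every control sample on the brightest probe alone. Without control 4 the difference on the brightest probe was -0.19.

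**Figure D2:**
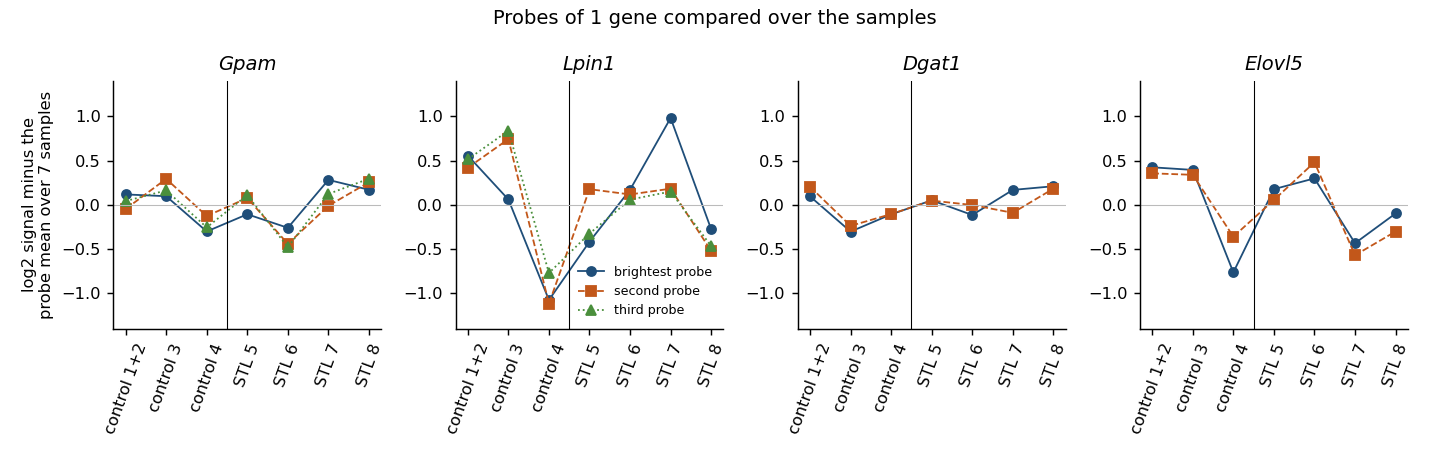
Log2 normalised signal of each probe minus that probe's mean (y axis) in the 7 samples (x axis) for Gpam, Lpin1, Dgat1 and Elovl5, 1 line per probe. The 3 Lpin1 lines share the low point at control 4, and the brightest line alone peaks at STL 7, 0.98 above its mean.

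Pnpla3, a lipid droplet protein with lipase and acyltransferase activities that is known for a human variant tied to fatty liver, was close to background. Its brighter probe was well above background on 5 of 8 arrays, 2 control and 3 STL, and the other probe on 0 arrays. The brighter probe read -4.36, -4.35 and -4.58 in control and -3.44, -3.94, -4.51 and -4.17 in STL. The log2 difference was 0.42 (95% interval -0.25 to 1.09, limma adjusted p 0.450), and STL 7 lay among the controls. Control 1 and control 2, counted as 1 sample, differed by 0.64 on this probe and by at most 0.15 on the probes of the other 9 members, which is more than the 0.42 between the groups.

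Mttp transfers triglyceride onto nascent apolipoprotein B. It measured 3.56, 3.26 and 3.65 in control and 3.80, 3.60, 3.22 and 3.73 in STL, with control 3 and STL 7 low. The log2 difference was 0.10 (95% interval -0.28 to 0.47, limma adjusted p 0.769). Quantile normalisation gave -0.01, and the fit without control 3 gave -0.02.

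The 3 genes of polyunsaturated fatty acid synthesis had negative point estimates, and the groups overlapped for each of them. Fads1, the desaturase that acts last in making arachidonic acid, measured 1.69, 3.24 and 1.80 in control and 1.61, 2.24, 1.17 and 0.84 in STL. Control 3 stood above all other samples, and STL 6 was above the other control samples. The means were 2.24 ± 0.87 (SD, n = 3) and 1.47 ± 0.61 (SD, n = 4), a log2 difference of -0.78 (95% interval -1.75 to 0.20, limma adjusted p 0.344), which is 1.71-fold lower in STL. Without control 3 it was -0.28.

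Fads2, the desaturase of the first step, measured 1.75, 2.21 and 0.99 in control and 1.55, 1.66, 1.30 and 1.88 in STL. All 4 STL values fell within the control range, and the log2 difference was -0.05 (95% interval -0.66 to 0.56, limma adjusted p 0.936). With each gene centred on its mean over the 7 samples, Fads1 minus Fads2 was -0.24, 0.85 and 0.63 in control and -0.12, 0.40, -0.31 and -1.22 in STL. The groups overlapped, and the contrast was 0.73 lower in STL (exact two-sided permutation p 0.171, adjusted 0.171 over 3 contrasts).

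Elovl5, the elongase that lengthens the products of Fads2, measured -1.22, -1.25 and -2.41 in control and -1.47, -1.34, -2.08 and -1.74 in STL. Control 4 was again the lowest sample, and the 4 STL values lay within the control range. The log2 difference was -0.03 (95% interval -0.75 to 0.68, limma adjusted p 0.963). The overlapping probe gave -0.20 and ranked the 4 STL samples in the same order, but its lowest sample was STL 7 at -2.49 and not control 4 at -2.28. The direction for Fads2 and Elovl5 turned with the sample left out, from -0.38 to 0.23 for Fads2 and from -0.42 to 0.17 for Elovl5.

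**Figure D3:**
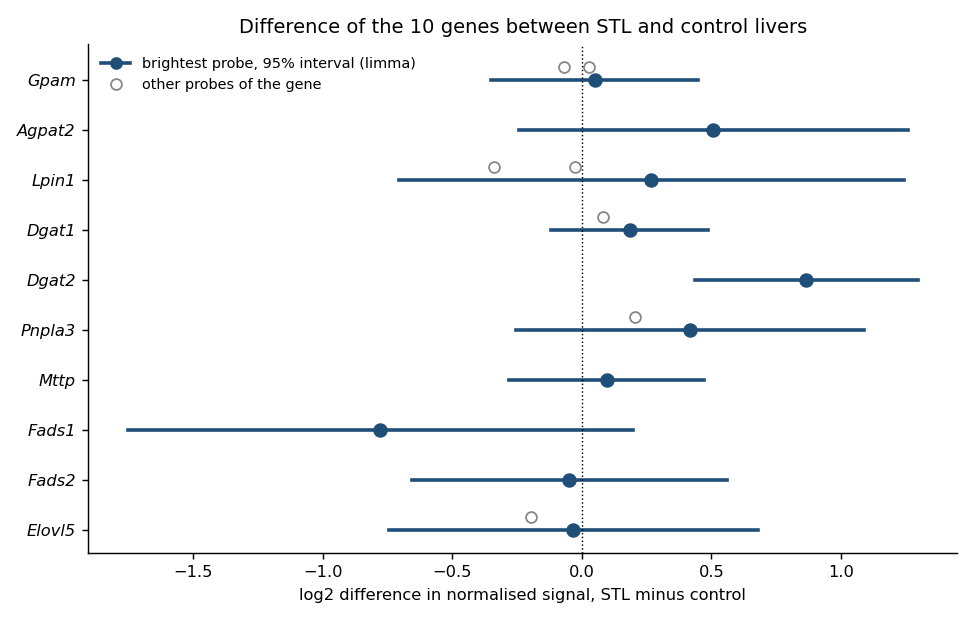
Log2 difference in normalised signal, STL minus control (x axis), for the 10 genes, with 95% limma intervals on the brightest probe (filled) and the differences of other probes (open). The Dgat2 interval, 0.44 to 1.30, is the only interval of the 10 that leaves out 0.

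Over the list, 0 of 10 members passed an adjusted p of 0.05, where 0.00461% of all genes tested did, that is 1 gene of 21676. At an unadjusted p under 0.05, 1 of 10 members was higher and 0 lower, beside 11.6% higher and 7.41% lower, or 19% either way, among all genes tested. The groups did not overlap for 1 of 10, higher in STL, beside 11.3% of all genes in that direction and 5.63% lower (16.9% either way), so the count of 1 is near the background. Point estimates were higher for 7 and lower for 3 members, where 58.1% of all genes were higher and 41.9% lower. The members' median log2 difference was 0.14, beside 0.06 over all genes.

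The scaling of the arrays touches these directions. The mean centred score of the hepatocyte markers was 0.09, -0.05 and -0.48 in the control samples and -0.00, -0.01, 0.44 and -0.00 in the STL samples, thus lowest in control 4 and highest in STL 7. Subtracting this score from each array moves the difference of every gene by the same -0.25, so that the median of all genes went from 0.06 to -0.18, and Gpam (-0.20), Dgat1 (-0.07) and Mttp (-0.15) turned negative. Dgat2 was then 0.62 higher with an adjusted limma p of 0.280, at 5.29, 5.47 and 5.21 in control against 5.94, 5.97, 5.55 and 6.31 in STL, still without overlap. Agpat2 was then 0.26 higher. Since this shift is common to all genes, distances to their median are fixed by construction: Dgat2 was 0.80 above it and Fads1 0.84 below it, and 6 of 10 members lay above it.

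Control 4 was the lowest of the 7 samples for 7 of the 10 members, Gpam, Agpat2, Lpin1, Dgat2, Pnpla3, Fads2 and Elovl5, and it was the lowest for 30.3% of all genes tested. It was also the sample with the highest lesion marker score, 2.03. STL 7 was the highest sample for Gpam, Agpat2 and Lpin1 (20.4% of all genes) and the lowest for Mttp. Control 3 was the highest for Fads1 and Fads2 (10.3% of all genes). The part of the lesion, cholangiocyte, stellate and adipocyte scores in the members' values was not tested.

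**Figure D4:**
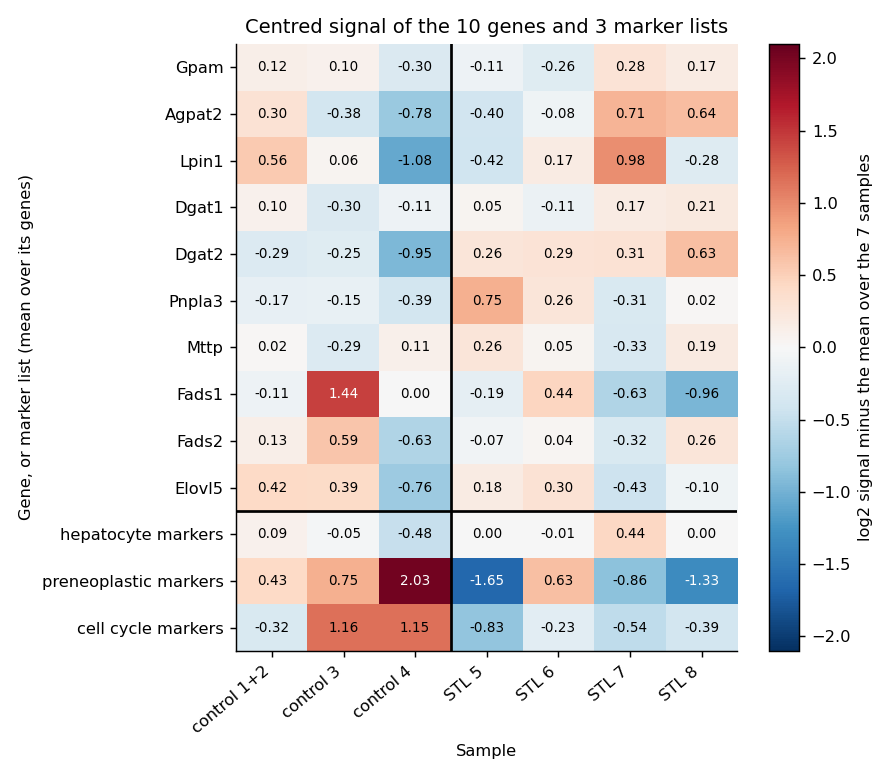
Log2 normalised signal of each of the 10 genes (rows) in each of the 7 samples (columns), centred on that gene's mean over the samples, above the mean centred levels of the hepatocyte, preneoplastic lesion and cell cycle markers. The control 4 column holds the lowest value of 7 gene rows, and the Dgat2 row separates the 4 STL samples from the controls.

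The genes whose centred profile over the 7 samples lay nearest to that of a member were sought among 13735 genes with a symbol, for the 3 members with the smallest p. The nearest to Dgat2 were Lrp5 (root mean square difference 0.106), Zfp831 (0.137) and Samd11 (0.138). Zfp831 was dim, from -4.33 in control 4 to -3.09 in STL 8. Lrp5 measured 1.97, 1.76 and 1.23 in control and 2.27, 2.21, 2.40 and 2.65 in STL. Its likeness to Dgat2 over the samples follows from how it was chosen. The nearest to Agpat2 were Asl (0.0990), Ass1 (0.101) and Amdhd1 (0.106), of which the first 2 are enzymes of the urea cycle and Amdhd1 acts in histidine breakdown. Profiles near Fads1 were less close, with Laptm4b at 0.260, Adgra2 at 0.280 and Chtf18 at 0.323. Adgra2 was dim as well, from -4.33 in STL 8 to -2.18 in control 3.

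The promoters of the polyunsaturated fatty acid genes are shown because the 3 genes act in sequence in 1 pathway while their profiles differed. The 250 bases before the annotated start were taken from RefSeq on the GRCr8 assembly, in which 7 of the 10 members matched an entry; Dgat1, Dgat2 and Mttp did not. Both strands were searched for CACGTG (E-box), CCAAT, TGACGTCA (cyclic AMP response element, CRE), the sterol response element (SRE) and DR1, 2 copies of AGGTCA with any base between them, bound by nuclear receptors. Matches are in capitals in the sequences, at chr1:216252442-216252691 on the plus strand for Fads1, chr1:216172034-216172283 on the minus strand for Fads2 and chr8:87670914-87671163 on the plus strand for Elovl5. Matches to CCAAT on the other strand read ATTGG.
Fads1: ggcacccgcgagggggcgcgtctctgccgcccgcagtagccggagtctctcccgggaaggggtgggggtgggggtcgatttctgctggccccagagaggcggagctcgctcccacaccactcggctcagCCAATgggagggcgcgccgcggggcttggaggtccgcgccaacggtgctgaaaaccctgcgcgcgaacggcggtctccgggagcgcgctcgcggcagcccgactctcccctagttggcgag
Fads2: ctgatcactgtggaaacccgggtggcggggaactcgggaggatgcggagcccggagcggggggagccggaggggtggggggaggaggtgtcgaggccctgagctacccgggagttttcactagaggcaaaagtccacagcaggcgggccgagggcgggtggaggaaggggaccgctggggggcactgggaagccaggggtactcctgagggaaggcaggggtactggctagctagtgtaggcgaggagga
Elovl5: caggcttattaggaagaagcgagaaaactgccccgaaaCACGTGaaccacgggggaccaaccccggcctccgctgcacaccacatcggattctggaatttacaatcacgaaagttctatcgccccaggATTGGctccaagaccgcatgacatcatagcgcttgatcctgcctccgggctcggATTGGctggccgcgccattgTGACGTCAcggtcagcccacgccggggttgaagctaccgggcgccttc
The Fads1 window holds 1 CCAAT match, from -121 to -117 before the start, and the Fads2 window no match to any of the 5 motifs. The Elovl5 window holds 1 E-box, 2 CCAAT matches and 1 CRE, the last from -48 to -41. Pnpla3 holds a CRE as well, from -58 to -51, beside 2 CCAAT matches.
Pnpla3: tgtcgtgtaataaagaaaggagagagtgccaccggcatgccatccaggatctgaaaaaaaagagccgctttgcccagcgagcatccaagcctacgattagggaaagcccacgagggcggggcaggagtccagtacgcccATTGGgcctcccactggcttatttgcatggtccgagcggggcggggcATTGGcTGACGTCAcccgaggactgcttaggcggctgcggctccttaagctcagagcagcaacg
The Pnpla3 window lies at chr7:117173278-117173527 on the plus strand and is shown for the CCAAT and CRE matches it shares with Elovl5. In Pnpla3 the CRE lies next to an ATTGG, from -64 to -60. In Elovl5 the nearest ATTGG lies farther from the CRE, from -68 to -64. Of 33469 promoters of the same length, 1.59% hold the CRE, 5.59% the E-box and 34% CCAAT, which was found in 5 of the 7 members. The SRE letters occur in 0.105% of promoters and those of DR1 in 0.0508%, and neither in the 7 members. These matches are letters in a window and not shown sites.

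The wider pathway was followed in 5 lists of related genes, of which 0 members passed the adjusted threshold in either direction. The 15 genes named from them were picked for the smallest p-values of their lists in these same data. With array weights 9 of the 15 passed the threshold, in a fit that called 1591 of 21676 genes. Under each other alternative 0 to 2 passed. In the list of other glycerolipid synthesis genes, 18 of 20 were tested, with a median log2 difference of 0.13. At an unadjusted p under 0.05, 4 were higher and 2 lower, beside 11.6% and 7.41% of all genes tested. The lowest was Gpat3, a glycerol phosphate acyltransferase of the endoplasmic reticulum, which the files list as Agpat9. It measured 4.04, 2.35 and 3.09 in control and 1.32, 1.11, 1.02 and 0.02 in STL. Every STL sample was below every control, with a log2 difference of -2.29 (95% interval -3.24 to -1.35, limma adjusted p 0.160). The dimmer Gpat3 probe was above background on 4 of 8 arrays and is not used. Gpam catalyses the same reaction at the mitochondrion. With each gene centred on its mean over the 7 samples, Gpat3 minus Gpam was 2.07, 0.40 and 1.54 in control and -0.42, -0.48, -1.11 and -2.002 in STL. The difference was -2.34 (exact permutation p 0.0571, adjusted 0.0857 over 3 contrasts). This contrast was chosen after the values were seen, with Gpat3 already picked for its small p-value. The adjustment does not cover that choice, so this p-value is not separate support.

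Acsl3, a long chain acyl-CoA synthetase of lipid droplets, had a log2 difference of -1.25 (limma adjusted p 0.163), at 0.82, 1.78 and 1.64 in control against 0.44, 0.28, -0.10 and 0.01 in STL, without overlap. Gpd1, which makes glycerol phosphate, was 0.71 higher (limma adjusted p 0.170), at 5.67, 5.28 and 5.09 against 6.23, 5.86, 5.93 and 6.19, again without overlap. Relatives of the members lay closer to 0, with Gpat2 at -0.30, Gpat4 at 0.07, Agpat1 at -0.07, Agpat3 at 0.25, Agpat4 at -0.31, Agpat5 at 0.06, Lpin2 at 0.16 and Lpin3 at 0.07. The monoacylglycerol acyltransferase genes Mogat1 and Mogat2 did not pass the filter on dim probes.

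Of the genes that break triglyceride down, 14 of 15 were tested, and the median was 0.01. Mgll, monoglyceride lipase, was 0.73 higher (limma adjusted p 0.179) with no overlap and 0.68 higher on its other probe. The liver carboxylesterase Ces1d was 0.57 higher (adjusted p 0.223) and Hilpda, a droplet protein that inhibits lipolysis, had a log2 difference of -0.43 (adjusted p 0.240), both with overlap. Pnpla2, the main triglyceride lipase of droplets, stood at -0.05. At an unadjusted p under 0.05, 2 of the 14 were higher and 1 lower, beside 11.6% and 7.41% of all genes tested.

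Of the VLDL assembly genes, 15 of 16 were tested, with a median of 0.14. Among them 2 were higher and 0 lower at an unadjusted p under 0.05, beside 11.6% and 7.41% of all genes tested. Apob, the structural protein of VLDL and the acceptor of Mttp, measured 8.36, 8.24 and 8.03 in control and 8.68, 8.58, 8.69 and 8.49 in STL. The groups did not overlap, and both Apob probes gave 0.40 (limma adjusted p 0.200 on the brighter). Quantile normalisation gave 0.11 (adjusted p 0.600) and hepatocyte marker scaling 0.15. Apoc3, an inhibitor of triglyceride clearance, was 0.44 higher (adjusted p 0.259), but -0.04 after quantile normalisation and 0.28 without control 4. Cideb, which helps load VLDL with lipid, was 0.40 higher (adjusted p 0.274), with overlap, and 0.25 higher without STL 5.

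Of the other polyunsaturated and very long chain fatty acid genes, 21 of 25 were tested, with a median of 0.12. Among them 5 were higher and 2 lower at an unadjusted p under 0.05, beside 11.6% and 7.41% of all genes tested. Cyb5a, cytochrome b5, the electron donor of the desaturases, was 0.49 higher (limma adjusted p 0.194), without overlap on this probe, and 0.38 higher on its other probe, where the groups overlapped; quantile normalisation gave 0.23. Fads3, the third gene of the desaturase cluster, was 0.50 higher (adjusted p 0.229). Scd2, a stearoyl-CoA desaturase, had a log2 difference of -0.99 (adjusted p 0.220) on the brighter probe, on which control 4 was the highest sample at 2.12, and of -0.32 on the other, on which control 4 was the lowest at -2.30. Without control 4 the brighter probe gave -0.47. The elongase Elovl2, which takes up the products of Elovl5, stood at 0.18.

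Of the regulators of these pathways, 24 of 25 were tested, with a median of 0.21. Among them 5 were higher and 1 lower at an unadjusted p under 0.05, beside 11.6% and 7.41% of all genes tested. Foxa2, a hepatocyte forkhead factor, was 1.34 higher (limma adjusted p 0.0983), at 3.19, 3.06 and 3.56 in control against 4.69, 4.59, 4.87 and 4.28 in STL. It passed the threshold under 4 alternatives. In 2 of them, each of 8 arrays a sample (limma adjusted p 0.0277) and the authors' deposited table (0.0283), control 1 and control 2 counted as 2 samples. These 2 fits used the same arrays and both gave 1.36, so they are not separate readings. The others were array weights (limma adjusted p 0.0136) and the fit without the averaged control pair (0.0342). Insig2, which holds the sterol regulatory element binding proteins (SREBPs) in the endoplasmic reticulum, had a log2 difference of -1.25 (adjusted p 0.160) and of -1.08 on its other probe. Ppara, the nuclear receptor of fatty acid catabolism, was 0.77 higher (adjusted p 0.164), with other probes at 0.65 and 0.15. Srebf1 and Mlxipl, the main transcription factors of lipogenesis, stood at 0.40 and 0.19, with overlap.

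**Figure D5:**
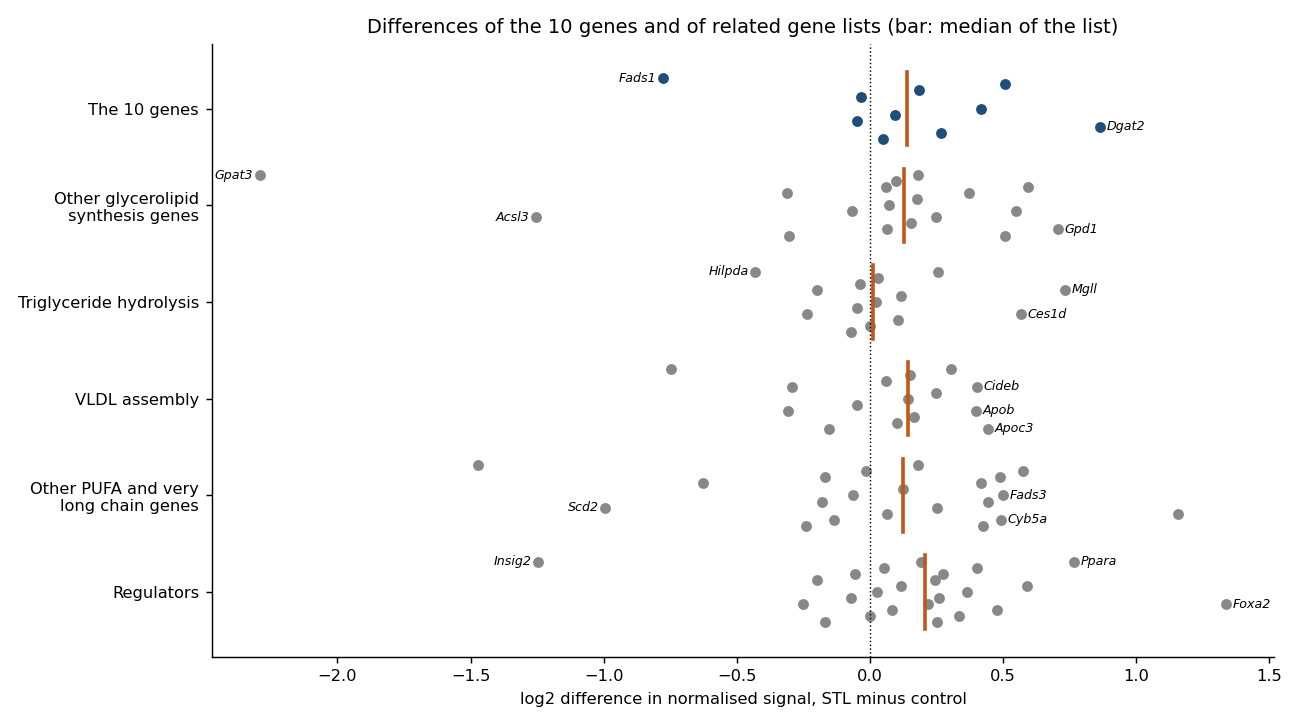
Log2 difference in normalised signal, STL minus control (x axis), of each gene tested (points), for the 10 members and 5 related lists (rows), with a vertical bar at each list's median. The list medians lie between 0.01 and 0.21, and Gpat3 at -2.29 lies farthest from 0.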

How the data were processed

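Agilent single-colour arrays of 8 rat livers were analysed from the deposited scanner files. Per the file headers, the authors' processed signal is a background-corrected intensity from Agilent Feature Extraction 11.5.1.1, with probe positions on rn4; the submitters' processing notes name version 10.7. Each array held 62976 spots; control spots and flagged outliers were left out, leaving 45598 probes, and 0 spots were saturated. Spots of a probe were averaged, and log2 values had the array's 75th percentile subtracted. Genes took the name of the file, updated through RefSeq accessions or symbols where these matched (23848 probes by accession), and were represented by their brightest probe; a gene entered the limma fit if its signal was well above background on 4 or more of the 8 arrays (limma 3.58.1, R 4.3.3, lmFit and eBayes with trend, Benjamini-Hochberg over 21676 genes, threshold 0.05). The fit was tested on simulated data. Contrasts between 2 genes used exact two-sided permutation tests. Figures were drawn with matplotlib 3.10.9.

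The members and lists were chosen with earlier results of these data known. All 10 members were named, and in each list the 3 genes with the smallest unadjusted p; other genes were chosen after their values were seen. Alternatives were each array as a sample, median, quantile and hepatocyte marker scaling, normexp background, other filters and probe rules, array weights, no trend, the slide column as a block, the authors' deposited value table, whose intensity columns have medians of 42.1 to 48.9, and leaving out each sample. Of the 8 columns of these deposited values, 2 matched the array they are labelled for and 6 a different array from their own group.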

Additional observations from a re-analysis of the deposited data

Results flagged for a closer look

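Of 25 results examined, 1 stood apart within its group. Dgat2 in STL 8 was 6.30, above the other 3 STL samples at 5.92 to 5.98; its gap to the next sample took up a share of 0.860 of the group's range, above the critical value of Dixon's test for 4 samples. Chance marks about 1 in 20 groups in this way. Without STL 8 the Dgat2 difference was 0.78.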

How the results depend on the processing

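The results were recomputed under 20 alternatives, 7 of which left out 1 sample. Dgat2 stayed higher under all 20, from 0.62 to 0.99 with adjusted p from 0.0364 to 0.363, and passed the threshold with array weights alone (0.77, p 0.0364). Agpat2 (0.26 to 0.80), Pnpla3 (0.17 to 0.58, not tested under the filter on all 8 arrays) and Fads1 (-1.53 to -0.28) also kept their direction, none past the threshold. Signs turned for Mttp (-0.00808) and Apoc3 (-0.0391) under quantile normalisation, for Elovl5 (0.0502) with normexp, for Lpin1 with the mean of probes (-0.0325), for Gpam (-0.0145) and Lpin1 (-0.0611) with array weights, and for Gpam (-0.199), Dgat1 (-0.0657) and Mttp (-0.153) with hepatocyte marker scaling, an alternative chosen after seeing the data. With 1 sample left out, Gpam ran from -0.0862 to 0.144, Lpin1 from -0.194 to 0.623, Mttp from -0.0217 to 0.220, Fads2 from -0.379 to 0.233 and Elovl5 from -0.424 to 0.171. The number of genes past the threshold was 1, but 21 with each of 8 arrays a sample, 1591 with array weights, 10 with the authors' deposited table, 8 with hepatocyte marker scaling, and 1 to 201 with 1 sample left out: 201 without the averaged control 1 and 2, 3 without control 3 and 46 without STL 6. Among genes at an unadjusted p under 0.05 the share higher in STL was 61.0%, and 45.4% with median scaling, 75.5% with normexp and 14.9% with hepatocyte marker scaling. Of the 15 named pathway genes, 9 passed the threshold with array weights (Gpat3, Acsl3, Gpd1, Mgll, Hilpda, Fads3, Foxa2, Insig2 and Ppara), Gpat3 and Insig2 with hepatocyte marker scaling, and Acsl3 and Foxa2 without the averaged control 1 and 2. The causes were not tested. No analysis paired by replicate number was possible because the groups share no replicate numbers. Pairing the 8 arrays by slide column, as a block, called 1 gene, in a fit that counted control 1 and control 2 as 2 samples. Signal near background limits Pnpla3.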
